A study of Mus musculus with 4 samples.

Results

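The E proteins and their ID inhibitors were followed across 4 RNA-seq libraries of pre-B cells, a marrow stage of the B lineage that already carries an immunoglobulin heavy chain. The 6 genes were taken by symbol, 3 for the activators (Tcf3, Tcf12 and Tcf4) and 3 for the inhibitors (Id3, Id2 and Id1), out of 23284 gene symbols. Each of 4 groups of C57BL/6J mice gave 1 library. The STAP-2 transgenic (Tg) and the wild-type (WT) marrow were sampled at steady state. The STAP-2 knockout (KO) and its own WT marrow were sampled 1 month after transplantation. STAP-2, encoded by Stap2, is a signal-transducing adaptor protein. The sources used here do not give the promoter of the transgene, the deleted exons, the recipients or whether animals were pooled. The study set out to find what makes B lymphopoiesis inefficient in transgenic marrow and which pathways STAP-2 controls under haematopoietic stress.

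E proteins are basic helix-loop-helix transcription factors that bind E-boxes in DNA as dimers. Tcf3 encodes E2A (the splice forms E12 and E47), which B cell development requires, Tcf12 encodes HEB and Tcf4 encodes E2-2. ID proteins share the helix-loop-helix domain but lack the basic region that touches DNA, so they bind E proteins and keep them off E-boxes. In mouse B lineage cells E2A acts with EBF1 and PAX5 on immunoglobulin, surrogate light chain and recombinase genes. Forced expression of ID proteins blocks B cell development.

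Values are FPKM as deposited, that is a value normalised to transcript length and to library size, so levels of different genes can be compared per length. With 1 library a group no difference was checked against replicates and no p-value is given. The 95% intervals cover counting error only, from reads estimated from the FPKM steps of low genes. Estimated depth was 7270000 reads in Tg and 7360000 in WT at steady state, and 8690000 in KO and 7750000 in WT after transplantation. Stap2 was near the detection limit throughout, at 0.536 FPKM in Tg and 0.212 in WT at steady state, and at 0.179 in KO and listed at 0 in WT after transplantation. It therefore does not check either genotype label, and the KO library is called the library labelled knockout. All 13 pre-B markers were read in every library, with summed levels of 6851 to 7666 FPKM.

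In the annotation of GRCm38, the assembly named mm10, Tcf3 lies on chromosome 10 (80409514 to 80433647, minus strand) with 14 annotated transcripts. Tcf12 lies on chromosome 9 (71842688 to 72111871, minus strand) with 21, and Tcf4 has 62. Id3 lies on chromosome 4 (136143497 to 136145755, plus strand), Id2 on chromosome 12 (25093799 to 25097140, minus strand) and Id1 on chromosome 2 (152736251 to 152737410, plus strand). No exon of another gene overlaps an exon of any of the 6. A gene-level value does not separate the E12 and E47 forms of Tcf3, nor the long and short forms of Tcf12 and Tcf4.

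E-boxes in the members' own promoters are shown because an E-box is the letter string that E proteins read and that ID proteins keep them from. Promoter windows from RefSeq on GRCm38.p6 were found for 4 of the 6 genes, Tcf3, Tcf12, Id2 and Id3, and the 250 bases before each listed start were searched, with 3 starts for Tcf12. The letters searched on both strands were the E-box CANNTG, its form CAGNTG that E proteins favour and that the first motif also matches, the EGR site GCGNGGGCG and the cyclic AMP response element TGACGTCA. Capitals mark E-boxes in the parts that lie outside annotated exons, written 5′ to 3′ on the gene's strand. The Id2 stretch lies before the RefSeq start but within an intron of a longer annotated Id2 transcript. They are chr10:80433648-80433885 for Tcf3, chr9:72111872-72112069 for Tcf12 and chr12:25096254-25096342 for Id2.
Tcf3: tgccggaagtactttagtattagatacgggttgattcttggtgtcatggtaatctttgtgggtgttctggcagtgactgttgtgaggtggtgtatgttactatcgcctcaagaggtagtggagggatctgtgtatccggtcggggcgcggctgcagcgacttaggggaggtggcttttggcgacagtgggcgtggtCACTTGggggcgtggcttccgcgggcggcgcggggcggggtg
Tcf12: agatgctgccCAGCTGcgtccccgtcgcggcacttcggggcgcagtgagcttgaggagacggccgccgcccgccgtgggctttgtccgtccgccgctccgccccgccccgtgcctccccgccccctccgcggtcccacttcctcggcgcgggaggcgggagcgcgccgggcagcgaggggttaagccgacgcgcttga
Id2: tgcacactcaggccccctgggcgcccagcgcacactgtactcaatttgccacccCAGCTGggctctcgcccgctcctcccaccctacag
Tcf3 held 1 E-box, 54 bases before its start, and Tcf12 held 1, 240 bases before its first start, in the CAGNTG form. The second Tcf12 start had 1 E-box 149 bases before it, not in that form, and the third had none. Id2 held 1, 196 bases before its start, also in the CAGNTG form. The 250 bases before Id3 (chr4:136143572-136143821) held none of the 4 motifs, and they are not printed because the annotation places them in an exon. Of 32851 promoter windows of the same length in the table, 66.2% held at least 1 CANNTG, 44.8% a CAGNTG, 4.70% the EGR site and 1.55% the response element, so an E-box in such a window is common. No EGR site or response element was found in the windows of these 4 genes.

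Tcf3 was the most abundant of the 6 transcripts by a wide margin. It stood at 360 FPKM in Tg and 401 in WT at steady state, and at 384 in the library labelled knockout and 343 in WT after transplantation. Steady-state WT was thus the highest library and transplanted WT the lowest, with a ratio of 1.17 between them. Tcf3 ranked between place 177 and place 209 of all 23284 symbols.

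Tcf12 came next, at 94.0 FPKM in Tg and 107 in WT at steady state, and at 98.5 in the library labelled knockout and 87.2 in WT after transplantation. Its libraries fell in the same order as those of Tcf3. Tcf4, on chromosome 18, varied least of the 6. It stood at 31.8 FPKM in Tg and 32.4 in WT at steady state, and 30.9 in the library labelled knockout and 33.1 in WT after transplantation. Of 8860 genes that reached 5 FPKM in any library, 4.37% spread less over the 4 libraries than Tcf4 on the log2(FPKM + 1) scale. Among the E protein transcripts Tcf3 supplied 74.0 to 74.8% of the summed FPKM.

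Id3 was the main inhibitor transcript, with 74.4 to 81.8% of the summed FPKM of the 3 ID genes. It stood at 62.2 FPKM in Tg and 45.8 in WT at steady state, and at 58.9 in the library labelled knockout and 76.7 in WT after transplantation. Transplanted WT was the highest library and steady-state WT the lowest, the reverse of Tcf3.

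Id2 was at 13.7 FPKM in Tg and 9.49 in WT at steady state, and at 10.5 in the library labelled knockout and 23.1 in WT after transplantation. It varied most of the 6, with a ratio of 2.44 between its highest and lowest library, and 97.4% of the 8860 genes spread less. Id1 was the lowest of the 6, at 2.35 FPKM in Tg and 2.33 in WT at steady state, and at 2.62 in the library labelled knockout and 3.30 in WT after transplantation. Those values rest on about 14.3, 14.3, 19.1 and 21.4 reads in the same order. Id4, the remaining family member, was listed at 0 in Tg and at 0.0939 FPKM in WT at steady state, and at 0 in the library labelled knockout and 0.0888 in WT after transplantation.

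Per length the order of levels was the same in every library: Tcf3, Tcf12, Id3, Tcf4, Id2 and Id1, from high to low. The ranges over the 4 libraries of neighbours in that order did not overlap. As a ratio the closest pair was Tcf12, lowest at 87.2 FPKM, and Id3, highest at 76.7 FPKM, both in transplanted WT. Tcf3 was 4.48 times Id3 in transplanted WT and 8.77 times Id3 in steady-state WT.

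**Figure D1:**
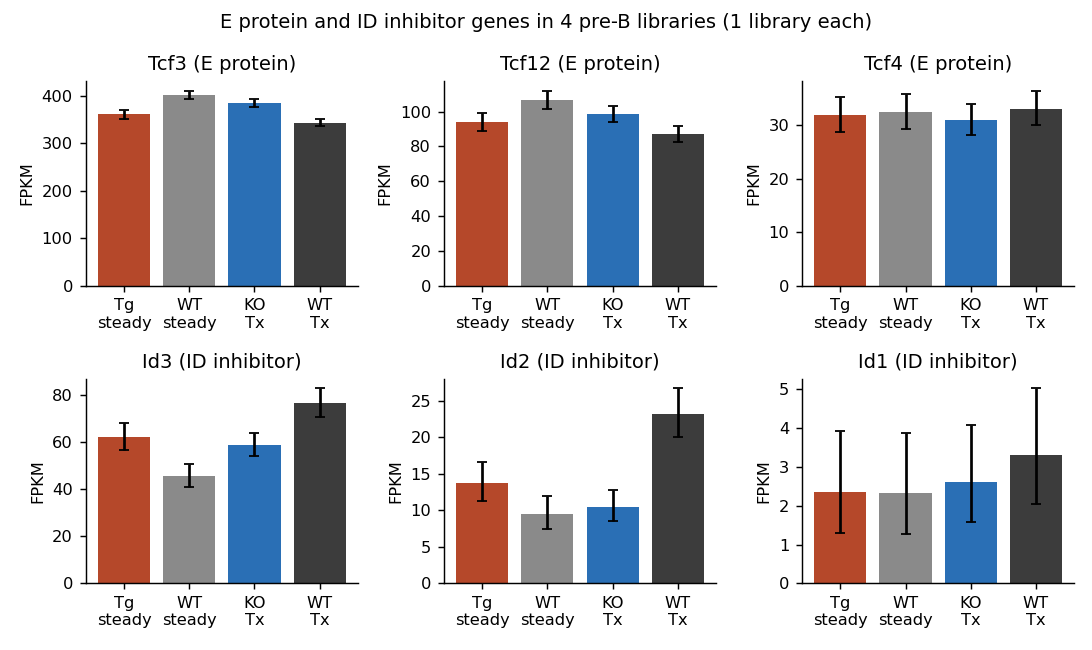
FPKM of the 6 genes (y axes, each from 0) in the 4 libraries (x axis), 1 bar per library, with 95% counting intervals. Id3 and Id2 are highest in transplanted WT (76.7 and 23.1 FPKM), where Tcf3 and Tcf12 are lowest (343 and 87.2 FPKM).

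Comparing Tg with WT at steady state asks what the transgenic label goes with when marrow is not transplanted. Of the inhibitors Id3 and Id2 were higher in Tg, and of the activators Tcf3 and Tcf12 were slightly lower. Id3 was 1.36-fold higher (1.18 to 1.56) and Id2 1.44-fold higher (1.06 to 1.97). Tcf3 was 1.11-fold lower (1.08 to 1.15) and Tcf12 1.13-fold lower (1.06 to 1.22). With reads estimated at the shortest annotated transcript, the intervals of their ratios reach 1 (0.801 to 1.01 for Tcf3, 0.745 to 1.04 for Tcf12). That of Id2 (1.0005 to 2.10) then only just excludes it. The intervals of Tcf4 (ratio 0.981, 0.850 to 1.13) and Id1 (ratio 1.01, 0.450 to 2.26) include 1.

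Of the 6 genes 3 were higher in Tg and 3 lower, beside 46.7% and 53.3% of all 10843 genes tested, and Id1 changes sides (-0.08 on the log2 scale) when libraries are rescaled to the same sum. None of the 6 reached 1.5-fold in this comparison on the log2(FPKM + 1) scale, on which 3.81% of 10843 genes were higher and 2.31% lower by that much. At 2-fold these shares were 1.22% and 0.682%. All genes had a median difference of -0.02 on that scale. Id2 differed by 0.49 and Id3 by 0.43, and 5.42% and 6.75% of genes were as high or higher. Tcf3 differed by -0.15 and Tcf12 by -0.18, and 24.7% and 21.1% of genes lay below them. The E protein differences are thus of a size that many genes showed.

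The library labelled knockout against WT, both after transplantation, bears on the labelled loss of STAP-2 in recovering marrow. Here Id2 and Id3 were lower and Tcf3 and Tcf12 slightly higher. Id2 was 2.21-fold lower (1.72 to 2.85) and Id3 1.30-fold lower (1.16 to 1.46). The interval of Id2 lies wholly beyond that of Id3. Tcf3 was 1.12-fold higher (1.08 to 1.16) and Tcf12 1.13-fold higher (1.05 to 1.21), or 0.959 to 1.33 at its shortest annotated transcript. For Tcf4 the ratio was 0.934 (0.815 to 1.07) and for Id1 it was 0.793 (0.405 to 1.54).

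Against transplanted WT, 2 of the 6 were above and 4 below it, beside 44% and 56% of all 10790 genes tested, and Tcf4 changes sides (0.0053 on the log2 scale) when libraries are rescaled to the same sum. Among the 6, Id2 alone was past 2-fold, lower by 1.07 on the log2(FPKM + 1) scale, and 0.982% of genes lay below it. Of 10790 genes, 1.18% were lower and 0.667% higher by 2-fold or more, and 4.39% lower and 3.76% higher by 1.5-fold or more. All genes had a median difference of -0.03. Id3 differed by -0.38, with 9.62% of genes below it. Tcf3 and Tcf12 differed by 0.16 and 0.17, and 20.8% and 19.6% of genes were as high or higher.

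Transplanted WT against steady-state WT compares marrow of the same genotype with and without transplantation. The pair also carries different codes in the library titles, so transplantation and whatever the codes stand for cannot be told apart. For every member but Tcf4 the largest of the 3 differences was found here. Id2 was 2.44-fold higher (1.86 to 3.24) and Id3 1.67-fold higher (1.47 to 1.91) in transplanted WT. Id1 had a ratio of 1.42 (0.693 to 2.99). Tcf3 was 1.17-fold lower (1.13 to 1.21) and Tcf12 1.22-fold lower (1.14 to 1.32), while Tcf4 had a ratio of 1.02 (0.887 to 1.18).

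Of the 6 genes 4 were higher in transplanted WT and 2 lower, beside 45.9% and 54.1% of all 10835 genes tested, and Tcf4 changes sides (-0.07) with the same rescaling. Id2 and Id3 passed 1.5-fold and Id2 also passed 2-fold on the log2(FPKM + 1) scale, with differences of 1.20 and 0.73. Of 10835 genes, 5.2% were higher and 2.28% lower by 1.5-fold or more, and 1.67% higher and 0.628% lower by 2-fold or more. Only 1.13% of genes were as high as Id2 or higher, and 3.49% as high as Id3. Tcf12 differed by -0.29, with 10.9% of genes below it, and Tcf3 by -0.22, with 16.7% below it. This comparison shares steady-state WT with the Tg comparison and transplanted WT with the knockout comparison, so the 3 sets of values are not independent of each other.

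**Figure D2:**
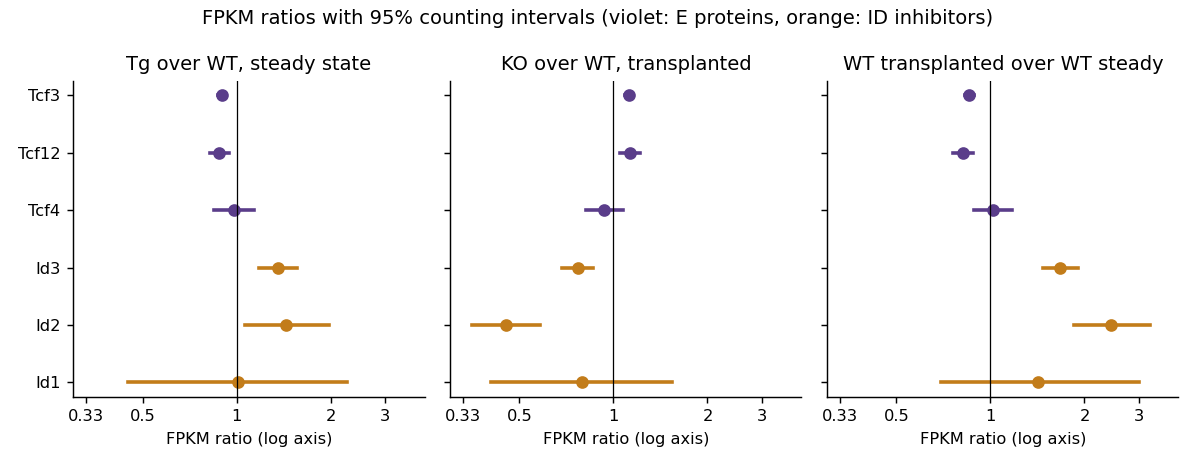
FPKM ratio of each of the 6 genes (x axis, log scale) in the 3 comparisons, with 95% counting intervals. Id2 and Id3 lie on the opposite side of 1 from Tcf3 and Tcf12 in every panel, and the intervals of Tcf4 and Id1 include 1.

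**Figure D3:**
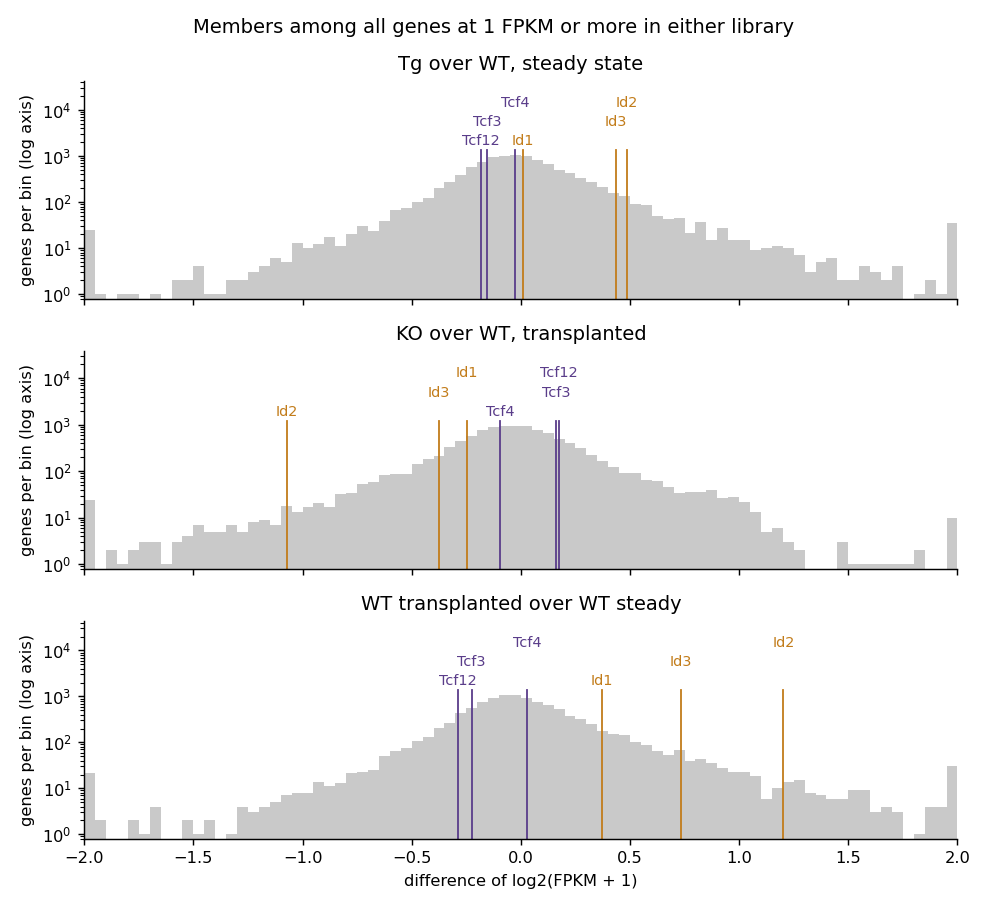
Number of genes per 0.05-wide bin (y axis, log scale) against the difference of log2(FPKM + 1) (x axis) in the 3 comparisons, with the 6 genes as lines, violet for E proteins and orange for ID inhibitors. The outermost bins also hold all genes beyond them. Id2 sits near the edge in the lower 2 panels (-1.07 and 1.20), while Tcf3 and Tcf12 stay inside the bulk.

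Activators and inhibitors were set against each other as the summed FPKM of the 3 E protein genes over that of the 3 ID genes, a ratio within a library that scaling between libraries cannot change. The E protein sum was 486 FPKM in Tg and 540.3 in WT at steady state, and 514 in the library labelled knockout and 463 in WT after transplantation. The ID sum was 78.3 FPKM in Tg and 57.6 in WT at steady state, and 72.0 in the library labelled knockout and 103 in WT after transplantation. Activator transcripts were in excess in every library. The ratio was 6.21 in Tg and 9.38 in WT at steady state, and 7.14 in the library labelled knockout and 4.50 in WT after transplantation.

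The ratio was 1.51-fold lower in Tg than in steady-state WT (1.33 to 1.71) and 1.59-fold higher in the library labelled knockout than in transplanted WT (1.43 to 1.76). It was 2.09-fold lower in transplanted than in steady-state WT (1.85 to 2.35). Most of each difference lay in the ID sum. That sum had ratios of 1.36 (Tg over WT), 0.698 (labelled knockout over WT) and 1.79 (transplanted over steady-state WT), against 0.900, 1.11 and 0.858 for the E protein sum. Without Id3 the knockout comparison gave 1.16 on the log2 scale, against 0.67 with all 6 genes, as Id2 makes up most of the remaining ID sum.

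**Figure D4:**
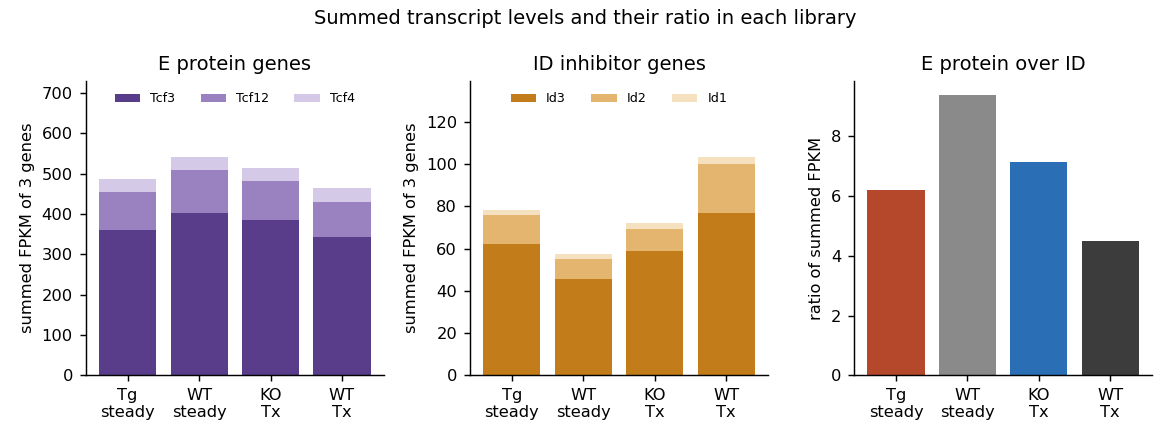
Summed FPKM of the E protein genes (left), of the ID genes (middle) and their ratio (right) on y axes from 0, for the 4 libraries on the x axis. The ratio runs between 4.50 in transplanted WT and 9.38 in steady-state WT, and the ID sum varies more than the E protein sum.

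Id3 and Id2 ordered the 4 libraries alike, from transplanted WT through Tg and the library labelled knockout to steady-state WT, and Tcf3 and Tcf12 ordered them in exact reverse. Of the 8860 genes that reached 5 FPKM in any library, 356 (4.02%) had the order of Id3 and 357 (4.03%) the reverse order. Each order by itself is thus shared by many genes. The Tg and knockout comparisons share no library. Id3 and Id2 (and Id1 as deposited) were higher in Tg and lower in the library labelled knockout, as were 22.6% of 10580 genes measured in both. Tcf3 and Tcf12 were lower in Tg and higher in the library labelled knockout, as were 20.4%. Tcf4 was slightly lower in both as deposited.

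Likeness of pattern was measured as the Euclidean distance between centred log2(FPKM + 1) profiles over the 4 libraries. For Id3 the nearest named genes were Rras (distance 0.059), Dtnb (0.064) and Scand1 (0.068), and 13 of 8859 genes lay within 0.1. For Id2 none did, and the nearest were Olfr99 (0.193), Hist1h4d (0.201), of a multigene family, and Ltb (0.213), the lymphotoxin beta gene. Ltb stood at 119 FPKM in Tg and 82.4 in WT at steady state, and at 109 in the library labelled knockout and 195 in WT after transplantation. The flatter E protein profiles had many like them, with 378 genes within 0.1 of Tcf3, 245 of Tcf12 and 954 of Tcf4. Among their nearest genes were Ppp2r2d, Paip1 and Dctn1 for Tcf3, Mrs2 and Msi2 for Tcf12, and Atg16l1, Ugp2 and Copb1 for Tcf4. All of these profiles come from the same 4 libraries.

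Markers of other cells differed between the same libraries as Id2, which myeloid and innate lymphoid cells also express. The 9 neutrophil markers summed to 1822 FPKM in Tg and 759.7 in WT at steady state, and to 641 in the library labelled knockout and 1664 in WT after transplantation. All 9 were higher in Tg, all 9 lower in the library labelled knockout and all 9 higher in transplanted than in steady-state WT. The 7 monocyte markers summed to 87.1 FPKM in Tg and 54.1 in WT at steady state, and to 53.0 in the library labelled knockout and 128 in WT after transplantation. At steady state 5 of the 7 reached 1 FPKM in either library, and 4 were higher in Tg and 1 lower. The lower one was Cd68, at 3.78 FPKM in Tg and 4.60 in WT. All 7 were lower in the library labelled knockout and all 7 higher in transplanted than in steady-state WT. S100a8, an abundant neutrophil gene, was at 720 FPKM in Tg and 293 in WT at steady state, and at 261 in the library labelled knockout and 613 in WT after transplantation. Lyz2, the macrophage lysozyme gene, was at 52.0 and 30.7 FPKM in Tg and steady-state WT, and at 27.1 and 76.2 in the library labelled knockout and transplanted WT. Of these markers none was listed at 0 in any library. In bulk RNA fewer cells of a type and less RNA per cell cannot be told apart. The part of these cells in the Id2 and Id3 values was not tested.

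Mature B cell markers, 6 of 7 listed genes being in the files, summed to 589 FPKM in Tg and 544 in WT at steady state, and to 647 in the library labelled knockout and 978 in WT after transplantation. All 6 were lower in the library labelled knockout and all 6 higher in transplanted than in steady-state WT. Their part in the result was not tested either. T, NK and innate lymphoid markers were low. Their 11 genes summed to 6.36 FPKM in Tg and 8.29 in WT at steady state, and to 5.49 in the library labelled knockout and 11.6 in WT after transplantation. The highest of them, Nkg7, was at 2.50 FPKM in Tg and 2.25 in WT at steady state. After transplantation Nkg7 was at 1.90 FPKM in the library labelled knockout and 6.39 in WT. Klrd1 was at 0.627 and 1.66 FPKM in Tg and steady-state WT, and at 0.175 and 0.588 in the library labelled knockout and transplanted WT. The part of these cells in the Id2 values was not tested. Ncr1 was listed at 0 in 3 libraries and Gata3 in Tg. The 6 plasmacytoid dendritic markers, cells in which Tcf4 is required, summed to 29.4, 21.3, 39.2 and 35.1 FPKM in Tg, steady-state WT, the library labelled knockout and transplanted WT. Most of each sum was Irf7 (19.3, 10.1, 26.6 and 22.8 FPKM) and Cox6a2 (9.15, 9.98, 11.7 and 10.6 FPKM). Siglech was at 0 in Tg and at most 0.589 FPKM elsewhere, and Ccr9, Clec10a and Flt3 were at most 0.599 FPKM in any library. The 7 erythroid markers summed to 5.25, 37.4, 9.29 and 6.44 FPKM in the same order, with Tal1 at 0 in transplanted WT. The 5 plasma cell markers summed to 304, 422, 95.7 and 101 FPKM, and each was read in every library.

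EGR factors, zinc finger activators of Id3 downstream of antigen receptor signalling in mouse thymocytes, differed beside Id2 and Id3 in both comparisons that involve transplanted WT. Egr1 was at 17.4 FPKM in Tg and 20.2 in WT at steady state, and at 25.0 in the library labelled knockout and 67.7 in WT after transplantation. Transplanted WT was thus far above the other libraries. Egr3 was at 7.97 and 11.2 FPKM in Tg and steady-state WT, and at 14.7 and 22.6 in the library labelled knockout and transplanted WT. Of 4 listed EGR genes 3 passed the filter of 1 FPKM, and all 3 were at least 1.5-fold lower in the library labelled knockout, with Egr1 and Egr2 past 2-fold. Over all genes 4.39% were lower there by 1.5-fold or more and 1.18% by 2-fold or more. Egr2 was low, at 1.63 FPKM in the library labelled knockout and 4.58 in transplanted WT. All 3 EGR genes were higher by 1.5-fold or more in transplanted than in steady-state WT, as were 5.2% of all genes. In Tg 1 was higher (Egr2) and 2 lower (Egr1 and Egr3), none by 1.5-fold, and Id3 was higher there. Whether EGR factors have a part in the Id2 and Id3 values was not tested. Egr4 was listed at 0 in all 4 libraries.

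**Figure D5:**
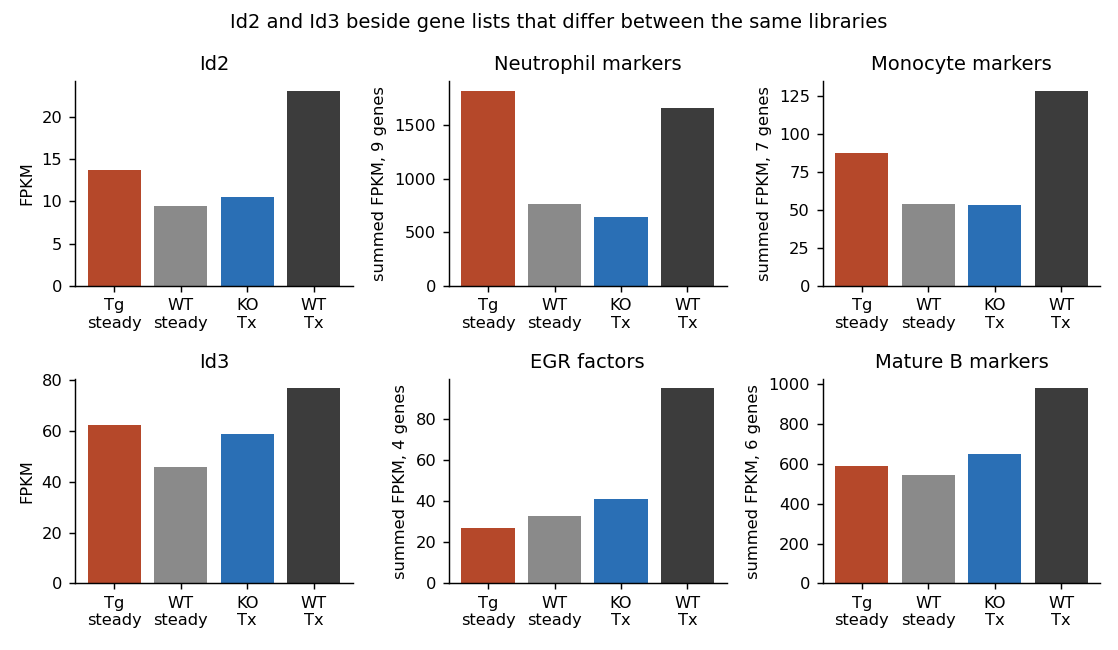
Id2 and Id3 (left, FPKM) beside the summed FPKM of neutrophil, monocyte and mature B cell markers and of EGR factors, on y axes from 0, for the 4 libraries on the x axes. Transplanted WT is highest in every panel but that of neutrophil markers, where Tg stands at 1822 and transplanted WT at 1664 FPKM.

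BMP receptors and their SMADs induce Id1, Id2 and Id3 in many cell types. The list taken here also holds TGF-beta receptors and an inhibitory SMAD. The median of the list differed little in Tg and in the library labelled knockout, and it was lower in transplanted than in steady-state WT. Of 15 genes 9 passed the filter and none reached 1.5-fold on the log2(FPKM + 1) scale in any of the 3 comparisons, with medians of 0.05 (Tg), -0.12 (labelled knockout) and -0.20 (transplanted WT). All genes had medians of -0.02, -0.03 and -0.02 in the same order. In transplanted WT 3 of the 9 were higher and 6 lower, beside 45.9% and 54.1% of all genes. The list median lay below the lower quartile of all genes, -0.16. Tgfbr2, a TGF-beta receptor gene, was at 64.4 FPKM in Tg and 60.5 in WT at steady state, and at 50.7 in the library labelled knockout and 60.7 in WT after transplantation. Smad3 was at 13.4 FPKM in Tg and 19.6 in WT at steady state. Smad7, an inhibitory SMAD, was at 13.2 FPKM in the library labelled knockout and 8.77 in transplanted WT, a plain ratio of 1.51. Bmpr1b, Smad6 and Smad9 were listed at 0 in all 4 libraries.

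Partners and cofactors of E proteins differed little. Of 15 genes 10 passed the filter, with medians of -0.09 in Tg, -0.04 in the library labelled knockout and -0.08 in transplanted WT. All genes had medians of -0.02, -0.03 and -0.02 in the same order. A single gene reached 1.5-fold on the log2(FPKM + 1) scale: Lmo2, which encodes a LIM bridge of E protein complexes, was at 17.1 FPKM in the library labelled knockout and 28.9 in transplanted WT. Over all genes 4.39% were lower by 1.5-fold or more in that comparison. Lyl1, a tissue-restricted partner of E proteins, was at 47.7 and 55.8 FPKM in the same libraries and at 47.4 and 46.2 FPKM in Tg and steady-state WT. Ep300, the coactivator p300, was at 36.5 FPKM in the library labelled knockout and 42.8 in transplanted WT. Its relative Crebbp was at 27.4 FPKM in Tg and 30.9 in WT at steady state. Tal1 was at most 0.173 FPKM in any library, and Ascl2 and Runx1t1 were listed at 0 in all 4.

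Of the E-box repressors, Zeb2 was at 52.6 FPKM in Tg and 56.2 in WT at steady state, and at 50.9 in the library labelled knockout and 47.5 in WT after transplantation. Zeb1 was at 12.6 and 13.3 FPKM in Tg and steady-state WT, and at 10.5 and 12.6 in the library labelled knockout and transplanted WT. Snai1 passed the filter only through transplanted WT, at 1.03 FPKM, and was listed at 0 in steady-state WT and in the library labelled knockout. Snai2 and Snai3 stayed below 1 FPKM.

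Among 8 genes that control the stability of the proteins, Skp2 alone passed 1.5-fold on the log2(FPKM + 1) scale. It was higher by that much in Tg and in the library labelled knockout, as were 3.81% and 3.76% of all genes. Skp2, the ubiquitin ligase subunit linked to E2A degradation, was at 9.90 FPKM in Tg and 4.84 in WT at steady state, and at 9.49 in the library labelled knockout and 4.83 in WT after transplantation. Both WT libraries were thus alike and both others higher. Usp1, a deubiquitinase that stabilises ID proteins, was at 48.6 FPKM in Tg and 40.6 in WT at steady state, and at 53.3 in the library labelled knockout and 37.8 in WT after transplantation. The medians of all 8 genes were -0.02, 0.08 and -0.06 for Tg, the library labelled knockout and transplanted WT. Those of all genes tested were -0.02, -0.03 and -0.02.

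Target genes of E proteins in the B lineage went in both directions. All 18 passed the filter. In Tg 4 were higher and 14 lower, at a median of -0.10, beside 46.7% and 53.3% of all genes at -0.02. In transplanted against steady-state WT 8 were higher and 10 lower, also at -0.10, beside 45.9% and 54.1% of all genes at -0.02. In the library labelled knockout 9 were higher and 9 lower, at 0.01, beside 44% and 56% of all genes at -0.03. Past 1.5-fold on the log2(FPKM + 1) scale were Igll1, Vpreb1 and Dntt, higher in Tg and in transplanted WT against their shared steady-state WT, and Rag1, lower in the library labelled knockout. Over all genes 3.81% were higher by that much in Tg, 5.2% higher in transplanted WT and 4.39% lower in the library labelled knockout. Igll1 and Vpreb1 encode the surrogate light chain and Dntt the terminal transferase. The E protein to ID ratio was lower in Tg and in transplanted WT than in their shared steady-state WT. In the knockout comparison, where that ratio was higher, Igll1 was at 49.7 FPKM in the library labelled knockout and 36.4 in transplanted WT. Rag1, the recombinase subunit, was at 286 FPKM in the library labelled knockout and 453 in transplanted WT. Ebf1, the factor that works with E2A, was at 140 FPKM in Tg and 194 in WT at steady state, and at 169 in the library labelled knockout and 154 in WT after transplantation. Irf4, a factor of the pre-B to immature B transition, was at 173 FPKM in Tg and 259 in WT at steady state. Il7r, the interleukin-7 receptor gene, was at 256 FPKM in the library labelled knockout and 176 in transplanted WT, and the chemokine receptor gene Cxcr4 was at 617 and 826 FPKM there. Rag2 was at 28.4 FPKM in transplanted WT and 43.1 in steady-state WT, 1.52-fold lower as a plain ratio. The 4 libraries of Ebf1 had the order of Tcf3 except that Tg was lowest.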

How the data were processed

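Messenger RNA of pre-B cells was sequenced, with total RNA from a miRNeasy kit and a TruSeq stranded mRNA library kit, per the labels' protocols. Per the submitters' processing notes the build was mm10, and the tools were Cufflinks 2.2.1, SAMtools 0.1.19, Bowtie2 2.2.3 and TopHat2 2.0.13. Not given in the sources used here are their order, the annotation, the use of strand and any scaling between libraries. The deposited values are read as FPKM because they are not whole and come with Cufflinks, since the file headers name no unit. Differences are log2(FPKM + 1), in the direction each comparison names, over genes that reach 1 FPKM in either library. This understates the change of low genes. Ratios are plain FPKM ratios.

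Reads were estimated from genes with 1 annotated transcript (GENCODE M21), whose low values lie on steps of 1 read. A length reduced by 210 nt gave the sharpest steps, and 66.3 to 70.1% of low values came within 0.1 of a whole read, with the depth set on the same genes. Ratios carry 95% Clopper-Pearson intervals at the median coding transcript length. Intervals of summed ratios use the delta method. Python packages numpy 2.4.6, pandas 2.3.3 and scipy 1.17.1 were used, and the fold counts were tested on simulated reads.

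The members and the 6 pathway and 8 marker lists were chosen with earlier results of these data known. From each pathway list the rule named up to 4 genes with the largest difference at 5 FPKM or more, from marker lists the 2 highest genes, and for each member at 5 FPKM or more its 3 nearest genes. Some genes so named are not reported here, and Ebf1, Egr4, Tal1, Siglech and the other genes given as listed at 0 or near it were named after their values were seen. Alternatives were other pseudocounts, filters, scalings, transcript lengths and sets of members.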

Additional observations from a re-analysis of the deposited data

How the results depend on the processing

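No paired analysis was possible because each group has 1 library, and for the same reason no replicate could be left out. The direction of the E protein to ID ratio was kept in all 3 comparisons under every alternative, which were means of log values, each gene left out in turn and Id4 added. With a mean of log2(FPKM + 5) the log2 difference was -0.38 for Tg and -0.77 for transplanted WT, against -0.59 and -1.06. Without Id3 it was 1.16 for the library labelled knockout and -1.38 for transplanted WT, against 0.67 and -1.06. Of the 18 member differences 15 kept their sign under other pseudocounts and scalings. Rescaling to the same sum, which moved the median of all genes to -0.13 (Tg), 0.06 (labelled knockout) and -0.12 (transplanted WT), turned Id1 in Tg (-0.08), Tcf4 in the library labelled knockout (0.0053) and Tcf4 in transplanted WT (-0.07). It moved the share of higher genes to 28.4%, 60.9% and 31.1%, and Tcf3 to -0.27, 0.27 and -0.33. With the shortest annotated transcript the intervals of Tcf3 in Tg (0.801 to 1.01) and of Tcf12 in Tg (0.745 to 1.04) and in the library labelled knockout (0.959 to 1.33) include 1. With the longest, that of Tcf4 in the library labelled knockout (0.880 to 0.992) does not. Reads limit Id1, for which no interval excludes 1.

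Counts of genes past 2-fold were 132 higher and 74 lower in Tg, 72 and 127 in the library labelled knockout, and 181 and 68 in transplanted WT. With a pseudocount of 0.1 they were 275 and 159, 154 and 267, and 346 and 158 in the same order. With a pseudocount of 5 they were 46 and 30, 18 and 51, and 65 and 27. At 1.5-fold they were 413 and 251, 406 and 474, and 563 and 247. At 5 FPKM or more, 69 were higher and 44 lower in Tg, 80 lower in the library labelled knockout and 41 lower in transplanted WT. With the same sum 117 were higher in the library labelled knockout. The cause of these shifts was not tested.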
